A study of Drosophila melanogaster with 18 samples.

Results

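Mature miRNAs of the gut were compared with those of the fat body in Drosophila melanogaster, to ask which miRNAs these 2 tissues of the adult abdomen differ in. The comparison took 6 of the 18 samples of the series, 3 small RNA libraries from gut and 3 from fat body, out of 12 small RNA libraries in all. The flies of both tissues were once-mated females of the wild-type white Dahomey stock (wDah), taken 10 days after eclosion and not treated. According to the methods, the gut was the midgut freed of Malpighian tubules and the fat body was the abdomen after gut and ovaries had been taken out, so that this group also holds body wall and whatever else remained in the abdomen. The other small RNA libraries came from brain and thorax, and the remaining samples were poly(A) RNA libraries from heads.

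A miRNA is cut from a hairpin, which yields a mature RNA from its 5′ arm (5p) and one from its 3′ arm (3p). Loaded into an Argonaute protein, the mature miRNA pairs with mRNAs chiefly through bases 2 to 8, its seed, and represses them, so that miRNAs with the same seed can share targets. The midgut of the adult fly digests and absorbs food, is renewed by intestinal stem cells and secretes antimicrobial peptides. The fat body stores fat and glycogen, makes yolk proteins and is the main source of antimicrobial peptides released into the haemolymph.

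The mature sequences that the comparison turned on are printed 5′ to 3′ from RefSeq (Release 6 of the Drosophila melanogaster genome), with the seed in capitals. The first group was higher in gut.
miR-958-3p: uGAGAUUCuucuauucuacuuu
miR-956-3p: uUUCGAGAccacucuaauccauu
miR-314-3p: uAUUCGAGccaauaaguucgg
miR-375-3p: uUUGUUCGuuuggcuuaaguua
miR-10-3p: cAAAUUCGguucuagagagguuu
miR-10-5p: aCCCUGUAgauccgaauuuguu
miR-263a-5p: aAUGGCACuggaagaauucacggg
miR-283-5p: aAAUAUCAgcugguaauucugg
miR-1012-3p: uUAGUCAAagauuuuccccauag
The next group was higher in fat body.
miR-276a-3p: uAGGAACUucauaccgugcucu
miR-274-5p: uUUGUGACcgacacuaacgggua
miR-1015-3p: uCCUGGGAcaucucucuugcag
miR-2494-5p: gUAAGUGCaccagauugggaa
miR-252-5p: cUAAGUACuagugccgcaggag
miR-125-5p: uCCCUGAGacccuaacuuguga
miR-100-5p: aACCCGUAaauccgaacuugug
The last pair has the same seed and moved in opposite directions, with the first name higher in gut and the second higher in fat body.
miR-306-5p: uCAGGUACuuagugacucucaa
miR-275-3p: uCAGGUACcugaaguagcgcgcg
All of these lie on chromosomes X, 2L, 3L and 3R. The letters UUCGAG stood at bases 3 to 8 of miR-314-3p and at bases 2 to 7 of miR-956-3p, and 2 of the 257 distinct sequences of tested names (0.778%) held them anywhere. The letters were taken from these 2 sequences, which had to hold them, so the share is a description and not a test.

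The table listed 426 mature names, of which 350 had a count in the 6 libraries and 258 had at least 10 counts over them and were tested. The 3 gut libraries held 986198, 7081807 and 5479229 counts, and the 3 fat body libraries 23261153, 12476018 and 13754973 counts. Levels are given as CPM, a name's counts scaled to its library's total, for replicates 1, 2 and 3. A single count was worth 1.01 CPM in gut replicate 1 and 0.0430 to 0.183 CPM in the other 5 libraries, so that low levels are known least well in gut replicate 1. Correlations of log2(CPM + 1) over the 130 names that averaged at least 10 CPM were 0.945 to 0.970 among gut libraries, 0.944 to 0.986 among fat body libraries and 0.605 to 0.730 between the tissues, and these values describe libraries over names that are not independent. Replicate 1 stood apart in both tissues. Over these names the median absolute difference to it was 0.507 and 0.487 on the log2 scale in gut, where replicates 2 and 3 differed by 0.234, and it was 0.331 and 0.369 in fat body, where replicates 2 and 3 differed by 0.199. The labels do not say whether the libraries of a tissue came from separate sets of flies, and the p-values measure the spread between these libraries only. In dissected tissue, fewer cells of a type and less RNA per cell cannot be told apart.

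Of the 258 names, edgeR's quasi-likelihood test called 113, or 43.8%, at an adjusted p (Benjamini-Hochberg) below 0.05. Of these, 52 were higher in gut, which is 20.2% of the names tested, and 61 were higher in fat body, which is 23.6%. A call was rarely small, since 110 of the 113 differed by at least 2-fold and 39 by at least 16-fold. The 3 libraries of one tissue all lay above those of the other for 149 names (57.8%), among them 51 of the 52 names called higher in gut and 60 of the 61 called higher in fat body, with miR-124-3p and miR-278-3p as the exceptions. The called names carried most of the counts. Those called higher in gut made up 55.7%, 55.3% and 56.7% of the counts in gut, against 2.92%, 2.89% and 3.27% in fat body. Those called higher in fat body made up 11.8%, 17.5% and 20.3% in gut, against 67.7%, 70.1% and 69.8% in fat body. Fold changes are gut over fat body, on a log2 scale after TMM scaling, and are given ± SE from the fit to 3 libraries a tissue. The scaling moved every one of them down by 0.42 against scaling by library totals, and the median of all 258 names was -0.46, against which each change should be read.

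**Figure D1:**
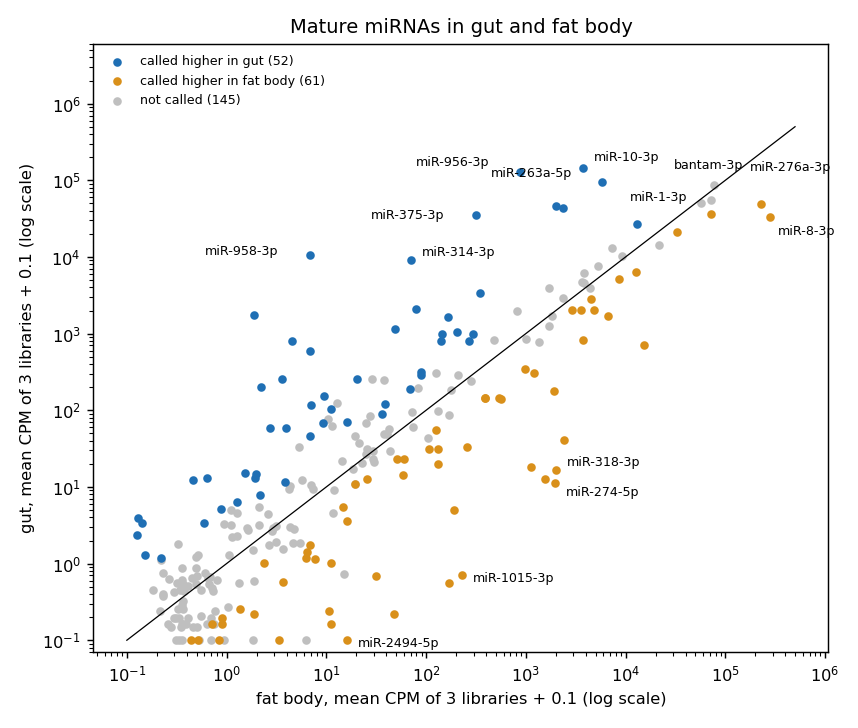
Mean level of each of the 258 mature miRNAs in gut (vertical axis) and fat body (horizontal axis), in CPM + 0.1 on log scales, with 3 libraries a tissue, coloured by the edgeR call. The line marks equal levels, the 52 names called higher in gut lie above it, miR-958-3p farthest from it, and miR-8-3p and miR-276a-3p are the most abundant names of the fat body.

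The called names with the largest differences higher in gut were those of miR-958, miR-956, miR-314, miR-375 and miR-1012. miR-958, a hairpin whose product has been linked to Toll signalling in flies, lies within an exon of the non-coding RNA CR43270 on chromosome 3L (chr3L:22669289-22669380, minus strand). miR-958-3p had 5974, 14434 and 11096 CPM in gut, against 4.86, 11.1 and 4.29 CPM in fat body. Every gut library lay far above every fat body library, and the fitted difference was 10.17 ± 0.72 on the log2 scale (edgeR adjusted p = 0.000138). Its other arm, miR-958-5p, had 3809.6, 890.5 and 589 CPM in gut, against 1.89, 2.32 and 1.09 CPM in fat body, a log2 difference of 9.49 ± 1.04 (edgeR adjusted p = 0.000519). Gut replicate 1 stood apart from the other gut libraries in both arms, low in miR-958-3p and high in miR-958-5p.

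The 3p arms of miR-314 and miR-956 share the letters noted above. Their hairpins lie 629 bases apart on opposite strands of chromosome 3L (chr3L:11773012-11773101, plus strand, and chr3L:11773731-11773878, minus strand), outside annotated host transcripts. miR-314-3p had 11696, 8334 and 7373 CPM in gut, against 80.3, 62.0 and 69.6 CPM in fat body and differed by 6.58 ± 0.32 on the log2 scale (edgeR adjusted p = 6.17e-05). miR-314-5p had 219, 189.9 and 189 CPM in gut, against 3.61, 1.44 and 1.24 CPM in fat body (6.10 ± 0.59, edgeR adjusted p = 0.000338). The 3 libraries of each tissue lay close together for miR-314-3p, and fat body replicate 1 stood above the other fat body libraries for miR-314-5p. miR-956-3p had 15250.5, 163894 and 211450.0 CPM in gut, against 1073, 757 and 808 CPM in fat body, with gut replicate 1 more than 10 times below the other gut libraries and still above every fat body library. Its log2 difference was 6.80 ± 1.07 (edgeR adjusted p = 0.00283), and without gut replicate 1 it was 7.51. miR-956-5p did not follow its partner in that library, with 1193, 647 and 543 CPM in gut, against 6.92, 4.01 and 2.47 CPM in fat body (7.01 ± 0.64, edgeR adjusted p = 0.00028).

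miR-375, which in mammals marks pancreatic islet cells and here lies in an exon of the non-coding RNA CR45345 (chr2L:857542-857632, plus strand), was even across the gut libraries. miR-375-3p had 33678, 36226 and 34465 CPM in gut, against 404, 380.1 and 158 CPM in fat body (6.35 ± 0.50, edgeR adjusted p = 0.000167), and miR-375-5p had 319, 223 and 218 CPM in gut, against 4.99, 3.77 and 1.67 CPM in fat body (5.73 ± 0.55, edgeR adjusted p = 0.000339). In both arms fat body replicate 3 was the lowest of its tissue.

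miR-10 lies in the Antennapedia complex of Hox genes, in an exon of the non-coding RNA CR42651 on chromosome 3R (chr3R:6809506-6809582, minus strand). miR-10-3p was the most abundant name of gut replicate 1, with 216269, 115307 and 100164 CPM in gut, against 3548, 3150.4 and 4494 CPM in fat body (4.84 ± 0.38, edgeR adjusted p = 0.000167). miR-10-5p had 27424, 50582 and 52664 CPM in gut, against 2799, 1912 and 2447 CPM in fat body (3.77 ± 0.37, edgeR adjusted p = 0.00034). Gut replicate 1 was the highest gut library for the 3p arm and the lowest for the 5p arm. The other 4 tested arms of Hox complex hairpins were not called. In all, 2 of 6 were higher in gut and 0 were higher in fat body, against 20.2% and 23.6% of all names tested. Of those 4, miR-iab-4-5p from the bithorax complex had 59.8, 43.2 and 42.3 CPM in gut and 33.4, 39.3 and 48.3 CPM in fat body, with overlapping libraries (-0.16 ± 0.28).

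miR-263a protects sensory bristle cells from death and restrains a sodium channel in the fly midgut. miR-263a-5p had 142008, 72088 and 70475 CPM in gut, against 6815, 5797 and 4938 CPM in fat body (3.58 ± 0.38, edgeR adjusted p = 0.000464), and the scarce miR-263a-3p had 57.8 to 60.2 CPM in gut, against 2.25 to 2.97 CPM in fat body (4.05 ± 0.32, edgeR adjusted p = 0.000167). Its relative miR-263b-5p, which was named after its values were seen, went the other way, with 72.0, 19.9 and 5.84 CPM in gut, against 272, 289 and 217 CPM in fat body (-3.49 ± 0.87, edgeR adjusted p = 0.0196), a call that was lost without gut replicate 2 or fat body replicate 2.

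Mirtrons are miRNAs whose hairpin is a short spliced intron rather than a Drosha product. Of 19 tested arms of the hairpins numbered miR-1003 to miR-1017, 6 were called higher in gut and 3 higher in fat body, against 20.2% and 23.6% of all names tested, and the median log2 difference was 0.55. miR-1012, from an intron of Lerp, the lysosomal enzyme receptor gene (chr3R:26861349-26861407, minus strand), led those of the gut. miR-1012-5p had 2311, 1875 and 2164 CPM in gut, against 88.5, 76.0 and 70.4 CPM in fat body (4.33 ± 0.27, edgeR adjusted p = 0.000102), and miR-1012-3p had 880.1, 462 and 425 CPM in gut, against 5.20, 8.10 and 6.91 CPM in fat body (6.02 ± 0.44, edgeR adjusted p = 0.000138). Both arms of miR-1006 and miR-1007 were also called higher in gut. miR-1015-3p, from an intron of CG6432 (chr3R:24339232-24339295, plus strand), was far lower in gut than in fat body, with 0, 0.565 and 1.28 CPM in gut, against 239, 203 and 242 CPM in fat body (-8.57 ± 0.69, edgeR adjusted p = 0.000167). miR-1014-5p, from an intron of salt, was low in both tissues, with 1.01, 0.988 and 1.10 CPM in gut, against 7.22, 8.26 and 7.56 CPM in fat body (-3.29 ± 0.37, edgeR adjusted p = 0.000541). The calls fell in 3 hairpins for gut and 3 others for fat body, and the number called in all lay near the 43.8% of all names. Of the gut calls 4 were left without gut replicate 2 or fat body replicate 3 and 3 without fat body replicate 2.

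**Figure D2:**
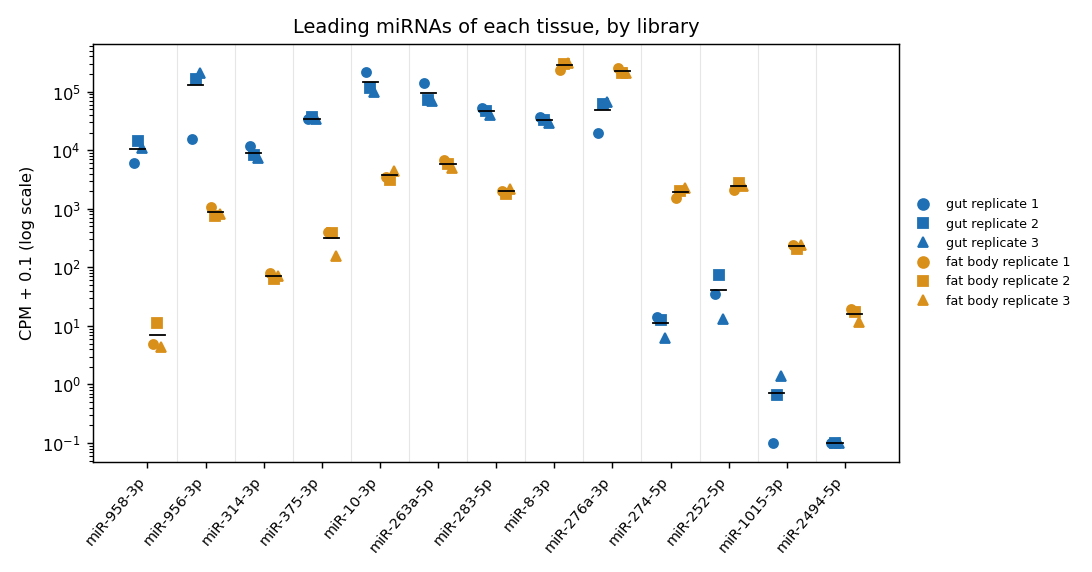
CPM + 0.1 (log scale) of 13 leading miRNAs in each library, with gut in blue on the left of each column and fat body in orange on the right, a symbol for each replicate and a bar at the mean of 3 libraries. The first 7 names lie higher in gut and the last 6 higher in fat body in every library, and miR-956-3p shows gut replicate 1 (circle) at 15250 CPM, far below the other gut libraries.

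In fat body the counts were concentrated in miR-8 and miR-276a. miR-8, the fly member of the miR-200 family, promotes growth by raising insulin signalling in fat body cells. miR-8-3p had 36709.7, 32365 and 29562 CPM in gut, against 237802, 301098 and 309003 CPM in fat body (-3.52 ± 0.21, edgeR adjusted p = 9.90e-05), so that it was abundant in gut as well. miR-8-5p had 625, 755 and 719 CPM in gut, against 19339.8, 17923 and 8337 CPM in fat body (-4.88 ± 0.44, edgeR adjusted p = 0.000268). miR-276a-3p, from an exon of the non-coding RNA CR46006 (chr3L:10365228-10365325, plus strand) and known to act on a dopamine receptor in memory formation, had 19643, 62698 and 66271 CPM in gut, against 254035, 212405 and 211582 CPM in fat body (-2.61 ± 0.50, edgeR adjusted p = 0.00688). Gut replicate 1 lay about 3 times below the other gut libraries for this name. miR-276b-3p, which has the same seed, had 167, 1987 and 201 CPM in gut and 1289, 1364 and 1442 CPM in fat body and was not called (-1.27 ± 0.92), with gut replicate 2 above the fat body libraries. The 5p arms of miR-276a and miR-276b have the same sequence and the same counts in every library, and are 1 measurement under 2 names, with 139.9, 144 and 148 CPM in gut, against 323, 421 and 422 CPM in fat body (-1.85 ± 0.23, edgeR adjusted p = 0.000892).

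Some fat body names were low or at 0 counts in gut. miR-274-5p, from a hairpin outside annotated host transcripts on chromosome 3L (chr3L:11656918-11657017, plus strand), had 14.2, 12.7 and 6.21 CPM in gut, against 1554, 2019 and 2282 CPM in fat body (-7.92 ± 0.43, edgeR adjusted p = 6.17e-05). miR-2494, whose hairpin lies in CG17560 on chromosome 3R, with the 3p arm in an exon (chr3R:16618766-16618882, plus strand), had no count in any gut library. miR-2494-5p had 19.0, 17.1 and 11.7 CPM in fat body, which put it at least 71.9-fold lower in gut against a floor of 3 counts over the gut libraries, and miR-2494-3p had 3.14, 4.25 and 2.47 CPM in fat body, at least 14.8-fold lower in gut. miR-252-5p, miR-929-5p and miR-284-5p, the last of them well detected in gut too, were named after their values were seen. For each of them every fat body library lay above every gut library, though miR-929-5p ranged from 126 to 242 CPM in fat body. miR-252-5p had 34.5, 75.1 and 12.8 CPM in gut, against 2117, 2777 and 2429.7 CPM in fat body (-6.36 ± 0.70, edgeR adjusted p = 0.000519). miR-929-5p, from an intron of complexin (cpx), had 3.04, 7.77 and 3.83 CPM in gut, against 126, 202 and 242 CPM in fat body (-5.64 ± 0.48, edgeR adjusted p = 0.000222). miR-284-5p, from an exon of the octopamine receptor gene Octbeta2R, had 161, 149.7 and 127 CPM in gut, against 537, 535 and 554 CPM in fat body (-2.32 ± 0.22, edgeR adjusted p = 0.000314).

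Among 14 tested arms of hairpins known for roles in fat storage, insulin signalling and growth, 6 were called higher in fat body and 2 higher in gut. Over all names tested these shares were 23.6% and 20.2%. The median log2 difference of the list was -0.58, close to that of all names. Besides miR-8, those higher in fat body were miR-14-3p, which limits fat stores and cell death, miR-278, which governs the response to insulin in the fat body, and miR-33-5p, made from an intron of the SREBP gene. miR-278-5p had 92.3, 152 and 172 CPM in gut, against 563, 513 and 602 CPM in fat body (-2.42 ± 0.32, edgeR adjusted p = 0.00124), while miR-278-3p had 2498, 1928 and 1726 CPM in gut and 2234, 3208 and 5251 CPM in fat body, so that its libraries overlapped (-1.20 ± 0.33, edgeR adjusted p = 0.0263) and its call was lost with the replicate block. miR-14-3p had 18430.4, 35876 and 55385 CPM in gut, against 58228, 79139 and 76179 CPM in fat body (-1.35 ± 0.44, edgeR adjusted p = 0.0437), and the call was lost without any one of 5 libraries, gut replicate 3 being the exception. Without gut replicate 1 or gut replicate 2 only 3 arms of this list were called higher in fat body, with the calls of miR-278-3p, miR-14-3p and miR-33-5p lost. miR-305-5p was higher in gut by 0.64 ± 0.20 (edgeR adjusted p = 0.0382), with 29112, 27908 and 23698 CPM in gut, against 10621, 12667 and 15458 CPM in fat body. That call was lost without any one library other than fat body replicate 3. With the replicate numbers as a block its adjusted p was 0.0978 in edgeR.

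Of 11 tested arms of hairpins studied in the intestinal epithelium, 3 were called higher in gut, namely both arms of miR-263a and miR-305-5p, which acts in intestinal stem cells, and 6 were called higher in fat body, with a median of -1.69. The number higher in gut lay near the 20.2% of all names, and the number higher in fat body stands against 23.6%. Those 6 were both arms of miR-8, miR-275-3p and the 3 arms of miR-281. miR-281-3p had 673, 1972 and 2493 CPM in gut, against 8166, 5598 and 6169 CPM in fat body (-2.37 ± 0.53, edgeR adjusted p = 0.0129).

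Of 19 tested arms of hairpins tied to Toll and Imd signalling or to antimicrobial peptides, 2 were higher in gut, both of miR-958, and 9 were higher in fat body, against 20.2% and 23.6% of all names tested. The 9 were both arms of miR-8, 4 arms of the miR-310 cluster, miR-317-5p, let-7-3p and miR-34-5p, and their median over all 19 was -3.52, or -2.39 with names at 0 set to their bounds. Without gut replicate 2, 4 of the 9 were called, the miR-310 cluster and let-7-3p being lost, and without gut replicate 3, 6 were. In limma-voom with all libraries kept, 6 arms of the list were called higher in fat body, and the calls of the miR-310 cluster were lost. Of 12 arms studied in the clock and in ageing, 3 were higher in gut, near the 20.2% of all names, and 5 in fat body, against 23.6% of all names. Those 5 include the 5p arms of miR-276a and miR-276b, which are 1 measurement under 2 names. miR-34-5p, which protects the ageing brain of the fly, had 23114, 17630.5 and 22165 CPM in gut, against 34572, 33308 and 29815 CPM in fat body (-1.06 ± 0.23, edgeR adjusted p = 0.0121), a call that was lost without gut replicate 1.

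In the miR-279 family 1 of 6 tested arms and in the miR-959 cluster 1 of 9 were called higher in fat body, against 23.6% of all names tested. In either, 0 were called with the replicate block or without any one of gut replicates 2 and 3 and fat body replicate 1. The called arm of the miR-279 family was miR-286-3p, whose hairpin lies apart from those of miR-279 and miR-996. No arm of miR-279 or miR-996 was called. Hairpins that lie within 10 kb of each other on 1 strand are often cut from 1 transcript. There were 20 such clusters with at least 2 tested hairpins. In 6 all calls were higher in gut, in 8 all calls were higher in fat body, 2 held calls in both directions and 4 held none. The miR-283, miR-304 and miR-12 hairpins, in an intron of Gmap on the X chromosome (chrX:15507956-15509546, plus strand), had all 6 arms called higher in gut, with a median of 3.24. miR-283-5p had 52766, 46565 and 40719.6 CPM in gut, against 1999, 1821 and 2168 CPM in fat body (4.12 ± 0.21, edgeR adjusted p = 6.17e-05). miR-12-5p had 3241, 3650.5 and 3301 CPM in gut, against 309.6, 340.3 and 391 CPM in fat body (2.87 ± 0.20, edgeR adjusted p = 0.000138), and miR-304-5p had 995, 1126 and 859 CPM in gut, against 138, 144 and 147 CPM in fat body (2.37 ± 0.21, edgeR adjusted p = 0.000268). The order of levels within the cluster, with miR-283 above miR-12 above miR-304 among the 5p arms, was the same in all 6 libraries.

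The miR-2a and miR-2b hairpins in an intron of spi, the gene of the EGF ligand Spitz, were also called higher in gut in all 4 tested arms, although the call of miR-2b-2-5p was lost without gut replicate 2 or gut replicate 3, and that of miR-2a-2-5p with the replicate block or without any one library other than fat body replicate 1. miR-2a-3p had 1692, 869 and 608 CPM in gut, against 194, 240.5 and 176 CPM in fat body (1.93 ± 0.41, edgeR adjusted p = 0.011). The miR-2 family represses the cell death genes reaper, grim and sickle. Of its 20 tested arms, 9 were called higher in gut and 0 higher in fat body, against 20.2% and 23.6% of all names tested. Their median was 0.90. With any 1 library left out 3 to 6 were called higher in gut, fewest without gut replicate 2. The 9 tested names with its 3p seed summed to 17418 ± 3074 CPM in gut and 8780 ± 779 CPM in fat body (SD, n = 3 each), and most of that sum was miR-11-3p, which had 8727, 15857 and 15126 CPM in gut and 6436, 7399 and 8258 CPM in fat body and was not called (0.43 ± 0.28). Reads of its near-identical members may have been split between names by the counting.

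In the hairpins within grp, the Drosophila Chk1 gene, the inner pair was higher in gut and the outer pair was not called. miR-306-5p had 1833, 2027 and 1129 CPM in gut, against 142, 153 and 207 CPM in fat body (2.88 ± 0.29, edgeR adjusted p = 0.000341), and miR-79-5p had 8.11, 16.4 and 14.1 CPM in gut, against 1.76, 1.76 and 1.96 CPM in fat body (2.41 ± 0.39, edgeR adjusted p = 0.00305). miR-79-3p had 10.1, 15.8 and 8.94 CPM in gut, against 3.35, 3.61 and 4.22 CPM in fat body (1.22 ± 0.34, edgeR adjusted p = 0.0292, and 0.0812 with the replicate block), and this call was lost without gut replicate 2 or any 1 fat body library. miR-9b-5p had 6776, 8799.9 and 7136 CPM in gut and 5524, 4764 and 5651 CPM in fat body (0.084 ± 0.20), and miR-9c-5p had 3851, 5691 and 4293 CPM in gut and 4900.4, 3050.3 and 3475 CPM in fat body (-0.16 ± 0.28). Their relative miR-9a-5p, which shares their seed, lies elsewhere and limits the number of sensory organ precursors, was higher in fat body, with 5238, 6466 and 7161 CPM in gut, against 11092, 13271 and 13970.3 CPM in fat body (-1.43 ± 0.23, edgeR adjusted p = 0.00288). Of the 10 tested arms of the miR-9 family 2 were called each way (1 each way with the replicate block), with a median of -0.08. These numbers lay near the 20.2% higher in gut and 23.6% higher in fat body of all names tested. The 3 names with this seed summed to 18471 ± 2548 CPM in gut and 21900 ± 1058 CPM in fat body (SD, n = 3 each).

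Calls went both ways in 2 clusters. In the pair miR-275 and miR-305 on chromosome 2L, miR-275-3p had 1974, 2283 and 1871 CPM in gut, against 6193, 4474 and 3906 CPM in fat body (-1.69 ± 0.27, edgeR adjusted p = 0.00298), against the rise of miR-305-5p given above. miR-275 is known for its part in blood digestion in mosquitoes. In the cluster of miR-317, miR-277 and miR-34 on chromosome 3R, miR-317-5p had 107, 385 and 417 CPM in gut, against 1235, 1198 and 1159 CPM in fat body (-2.39 ± 0.53, edgeR adjusted p = 0.0129). miR-277, which acts on the breakdown of branched-chain amino acids, was called higher in gut in its scarce arm only. miR-277-5p had 362, 275 and 234 CPM in gut, against 77.8, 92.7 and 96.0 CPM in fat body (1.28 ± 0.25, edgeR adjusted p = 0.00766), and miR-277-3p had 1908, 8891 and 7814 CPM in gut and 3113, 4004 and 4385 CPM in fat body (0.29 ± 0.54).

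The let-7 complex, 3 hairpins in an exon of the non-coding RNA let7C, marks adult stages and acts in remodelling of nerve and muscle. It had 3 of 6 arms called higher in fat body and 0 higher in gut, against 23.6% and 20.2% of all names tested. miR-125-5p had 42.6, 175 and 310.1 CPM in gut, against 1718, 1963 and 2051 CPM in fat body (-3.82 ± 0.73, edgeR adjusted p = 0.00678), and miR-100-5p had 170.4, 853 and 1436 CPM in gut, against 3526, 3772 and 3911 CPM in fat body (-2.57 ± 0.73, edgeR adjusted p = 0.0302). Both were lowest in gut replicate 1. The calls of let-7-3p and miR-100-5p were lost without gut replicate 2 or any 1 fat body library, and that of let-7-3p also without gut replicate 1. let-7-5p itself had 23152, 9967 and 9326 CPM in gut and 23932, 21445 and 19292 CPM in fat body and was not called (-1.05 ± 0.39, edgeR adjusted p = 0.0698), with gut replicate 1 at the fat body level. With the replicate block it was called (edgeR adjusted p = 0.0296).

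**Figure D3:**
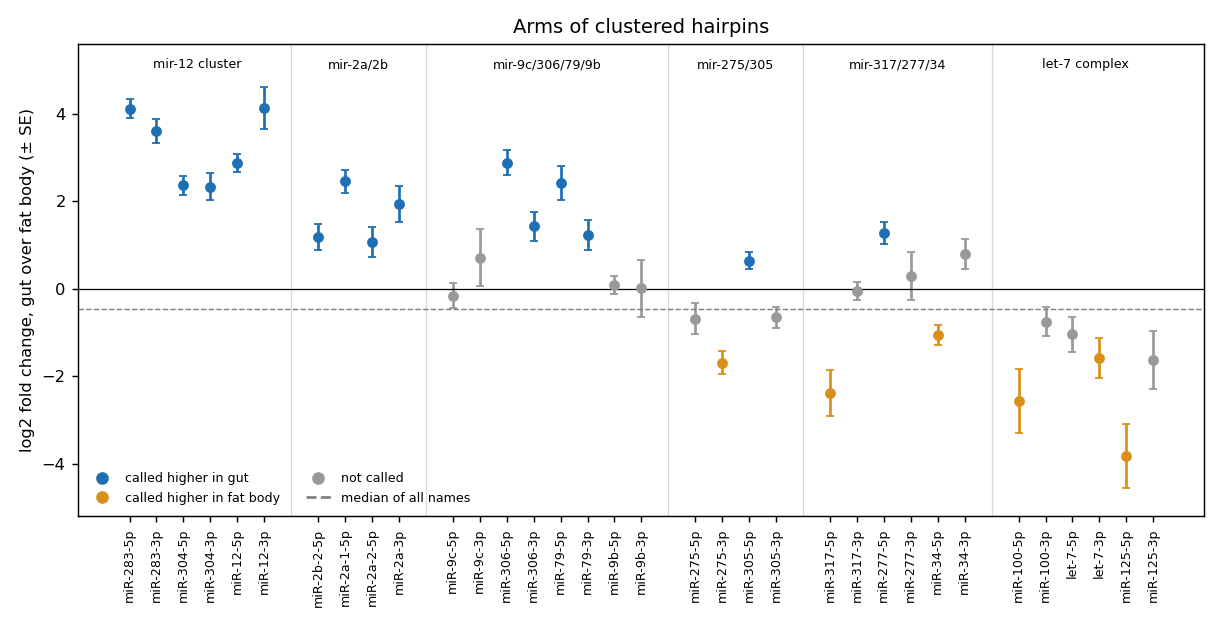
Log2 fold change, gut over fat body, ± SE (3 libraries a tissue), for the arms of 6 clusters of hairpins, coloured by the edgeR call, with the median of all 258 names (-0.46) as a dashed line. All arms of the miR-12 cluster lie above 0, while the pair miR-275 and miR-305 and the cluster of miR-317, miR-277 and miR-34 hold calls on both sides of 0.

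The 258 tested names held 227 seeds, and 17 seeds were shared by at least 2 names. Names with 1 seed were called in opposite directions for 2 seeds only, CAGGUAC in miR-306-5p and miR-275-3p and AAAGCUA in miR-79-3p and miR-9a-3p. Each pair was picked because its members went in opposite directions. The ratio of its sums between the tissues therefore had to lie between the ratios of its members, and the sums are given as levels only. miR-306-5p and miR-275-3p summed to 3706 ± 661 CPM in gut and 5025 ± 1163 CPM in fat body, and miR-79-3p and miR-9a-3p summed to 22.4 ± 4.26 CPM in gut and 23.0 ± 2.92 CPM in fat body (SD, n = 3 each). miR-306-5p made up 1129 to 2027 CPM of the first sum in gut, against 142 to 207 CPM in fat body. miR-9a-3p had 10.1, 11.4 and 10.6 CPM in gut, against 16.4, 21.8 and 19.6 CPM in fat body (-1.26 ± 0.28, edgeR adjusted p = 0.0137, and 0.0509 with the replicate block), a call that was lost without gut replicate 1 or fat body replicate 2. The sums were not tested.

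For 92 hairpins both arms were tested. Both arms were called higher in gut in 17 and higher in fat body in 12, 1 arm was called in 32 and none in 31, and no hairpin had its arms called in opposite directions. The share of the 3p arm among the counts of both arms does not depend on library scaling. It was compared in the 48 hairpins with at least 100 counts over both arms in each library, and the 3 shares of one tissue all lay above those of the other in 25 of them (52.1%). With 3 libraries a tissue the smallest p that an exact two-sided permutation test can give is 0.10, so no hairpin could pass 0.05, and the shares are a description. The difference was at least 10 percentage points in 11 hairpins, and libraries did not overlap in 9 of those.

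miR-282, from an exon of the non-coding RNA CR43626, changed its major arm. The 3p arm was 10.9%, 19.1% and 15.7% of its counts in gut and 60.4%, 73.2% and 63.9% in fat body, a difference of -50.6 percentage points. Its 5p arm was called, with 99.4, 39.4 and 35.4 CPM in gut, against 4.17, 2.65 and 4.73 CPM in fat body (3.47 ± 0.53, edgeR adjusted p = 0.00256), whereas miR-282-3p had 12.2, 9.32 and 6.57 CPM in gut and 6.36, 7.21 and 8.36 CPM in fat body and was not called (-0.099 ± 0.34, a sign that changes with the scaling). The 5p arm alone was also called for miR-998, an intronic hairpin of the cell cycle gene E2f1, whose 3p share was 7.0% in gut replicate 1, 44.7% and 52.0% in the other gut libraries and 78.5%, 63.2% and 64.3% in fat body. miR-998-5p had 94.3, 118 and 95.1 CPM in gut, against 8.98, 11.5 and 12.5 CPM in fat body (2.80 ± 0.27, edgeR adjusted p = 0.000338), and miR-998-3p had 7.10, 95.5 and 103 CPM in gut and 32.8, 19.7 and 22.5 CPM in fat body (1.05 ± 0.85).

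For miR-965, in an intron of kis, the 3p share was 26.0%, 37.3% and 18.3% in gut and 2.59%, 5.24% and 8.66% in fat body. miR-965-3p had 145, 152 and 58.8 CPM in gut, against 3.87, 7.13 and 9.81 CPM in fat body (3.66 ± 0.51, edgeR adjusted p = 0.0015), and miR-965-5p had 412, 255 and 263 CPM in gut and 145, 129 and 103 CPM in fat body and was not called (0.86 ± 0.31, edgeR adjusted p = 0.062). Every gut library lay above every fat body library for miR-965-5p too, and it was called higher in gut in 5 of the 18 alternatives. The 3p share of miR-317 was 97.4%, 92.8% and 92.5% in gut and 71.8%, 75.6% and 78.3% in fat body, where only the 5p arm was called, as given above. For miR-988 it was 4.37%, 3.61% and 3.13% in gut and 19.8%, 24.8% and 20.4% in fat body, with close libraries in both tissues. For miR-306 it was 10.8%, 16.4% and 23.1% in gut and 43.2%, 34.2% and 26.8% in fat body. Library preparation can favour 1 arm over another, and gut replicate 1 lay farthest from the other gut libraries in the shares of miR-282, miR-998, miR-317 and miR-988 but not in those of miR-306 and miR-965. The part of library preparation in these shares was not tested.

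**Figure D4:**
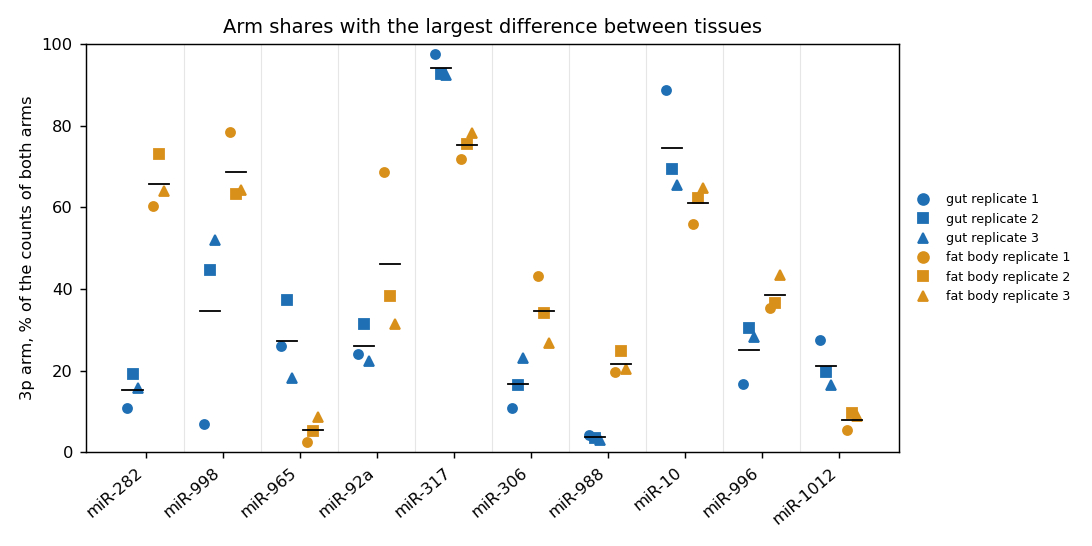
Share of the 3p arm among the counts of both arms (%), for the 10 hairpins with the largest mean difference, with gut in blue on the left of each column and fat body in orange on the right, a symbol for each replicate and a bar at the mean of 3 libraries. miR-282 lies at 10.9% to 19.1% in gut and 60.4% to 73.2% in fat body, and only miR-92a overlaps among these 10.

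Of the names abundant in both tissues, those with differences nearest 0 were miR-317-3p, miR-9b-5p, miR-190-5p, miR-9c-5p and bantam-3p. miR-317-3p differed by -0.052 ± 0.21 on the log2 scale, with a 95% interval of -0.56 to 0.46, and its sign, like those of miR-190-5p and miR-9c-5p, changes with the scaling. miR-190-5p had 2855, 3318 and 2546 CPM in gut and 1814, 2512 and 2743 CPM in fat body (interval -0.63 to 0.40). bantam-3p, which promotes growth and blocks cell death, had 70766, 104825 and 82991 CPM in gut and 63203, 80097 and 86982 CPM in fat body (-0.25 ± 0.22, interval -0.79 to 0.28), and with library totals in place of TMM its difference was 0.17. Such intervals do not show equal levels. miR-184-3p, which is needed in the female germ line, had 91381, 36923 and 24412 CPM in gut and 81388, 52473 and 36652 CPM in fat body with replicate 1 highest in both tissues, and it was not called (-0.62 ± 0.55).

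Among markers of other cells, miR-1-3p of muscle was among the most abundant names of both tissues, with 82156, 41353 and 44826 CPM in gut and 73882, 67152 and 73363 CPM in fat body, and was not called (-0.78 ± 0.31, edgeR adjusted p = 0.0832). It was called in 3 alternatives, with the adjusted p over all of them between 0.0127 and 0.385 and that without gut replicate 1 at 0.0454 (edgeR). The muscle list, 3 tested arms of miR-1 and miR-133, summed to 82180, 41550 and 44830 CPM in gut and 73890, 67160 and 73370 CPM in fat body, none of them called, and nearly all of each sum was miR-1-3p. miR-133-3p had 26.4, 197 and 7.85 CPM in gut and 10.7, 8.74 and 11.1 CPM in fat body (2.44 ± 1.07, edgeR adjusted p = 0.104). It was called in 4 alternatives, among them those without gut replicate 1 (edgeR adjusted p = 0.0482) and without gut replicate 3 (0.0347). Neuronal markers summed to 6.08, 112 and 7.12 CPM in gut and 4.69, 12.3 and 7.13 CPM in fat body, and testis markers to no more than 1.27 CPM in any library, with 5 of their 16 names at 0 in all 6. miR-124-3p, the neuronal miRNA, was called higher in gut (0.0259 adjusted p in edgeR), but on 0, 10.9 and 0.730 CPM in gut, against 0.0860, 0 and 0 CPM in fat body. Its 2 counts in fat body give a ratio of 148 (95% counting interval 39.7 to 1243). Gut replicate 2 held nearly all of it, so that it was not tested without that library, and the call was also lost without any 1 fat body library. Gut replicate 2 also held the highest levels of miR-133-3p and miR-315-5p.

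Markers of ovarian follicle cells set 1 fat body library apart. The list, miR-318, miR-994 and miR-989, summed to 48.7, 31.4 and 63.7 CPM in gut and 12880, 120 and 1172 CPM in fat body. Of its 4 tested arms 3 were called higher in fat body and 0 higher in gut, against 23.6% and 20.2% of all names tested. The number higher in fat body was 0 without gut replicate 2 and 1 without gut replicate 3 or with the replicate block. It was also 0 in limma-voom and 1 in DESeq2 with all libraries kept. In the list 1 of 6 names was at 0 in all 6 libraries. miR-318-3p had 21.3, 9.32 and 19.5 CPM in gut, against 5951, 46.5 and 70.2 CPM in fat body (edgeR adjusted p = 0.0352). Its log2 difference was -7.42 ± 2.22, and -2.18 without fat body replicate 1 (edgeR adjusted p = 0.017). With the replicate block its adjusted p was 0.0701. miR-994-5p, from the same cluster, had 17.2, 10.6 and 26.3 CPM in gut, against 3241, 28.4 and 74.3 CPM in fat body, a difference of -6.41 ± 2.00 (edgeR adjusted p = 0.0395), and without fat body replicate 1 it was -1.84 and no longer called (edgeR adjusted p = 0.0561). With the replicate block its adjusted p was 0.102. miR-989-3p, which guides border cell migration in the ovary, had 9.13, 10.7 and 17.7 CPM in gut, against 3641, 45.1 and 1027 CPM in fat body, a difference of -7.39 ± 1.62 (edgeR adjusted p = 0.0122), so that fat body replicate 3 held it too.

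The miR-310 cluster, known from the ovary, was highest in fat body replicate 1. With miR-92a and miR-92b, 5 of 11 tested arms were called higher in fat body and 0 higher in gut, against 23.6% and 20.2% of all names tested. Without gut replicate 2, 0 were called higher in fat body, and without gut replicate 3, 2 were. With all libraries kept, limma-voom called 1 higher in fat body, and DESeq2 called 4 higher in fat body and 1 higher in gut. The median was -6.63, or -3.17 with names at 0 set to their bounds. miR-312-3p had 0, 0.282 and 1.10 CPM in gut, against 466, 18.5 and 22.6 CPM in fat body (edgeR adjusted p = 0.0129). miR-311-3p had 0, 0 and 0.365 CPM in gut, against 128, 12.0 and 2.40 CPM in fat body, a ratio of 434 on 2 gut counts (95% counting interval 120 to 3586). Of the 10 names with the largest differences higher in fat body among those that averaged at least 10 CPM there, 7 had fat body replicate 1 at least 3 times above the next library, and over all 61 calls 8 did. Without that library 7 of the 8 were still called, miR-994-5p being the exception, but with smaller differences, as -5.44 in place of -8.61 for miR-312-3p. miR-92b-3p, which shares a seed with the cluster, had 20.3, 17.8 and 22.1 CPM in gut, against 275, 68.7 and 50.5 CPM in fat body (-3.17 ± 0.75, edgeR adjusted p = 0.0163). The direction of its neighbour miR-92a-3p changed without fat body replicate 1, and also in limma-voom and with the replicate block. miR-92a-3p had 27.4, 33.0 and 27.4 CPM in gut and 116, 7.29 and 8.22 CPM in fat body and a difference of -1.07 ± 1.10 that was not called, and without fat body replicate 1 it was higher in gut by 1.54 (edgeR adjusted p = 0.0127). Follicle markers and the miR-310 cluster moved together in fat body replicate 1, and the part of ovary tissue in these names was not tested.

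**Figure D5:**
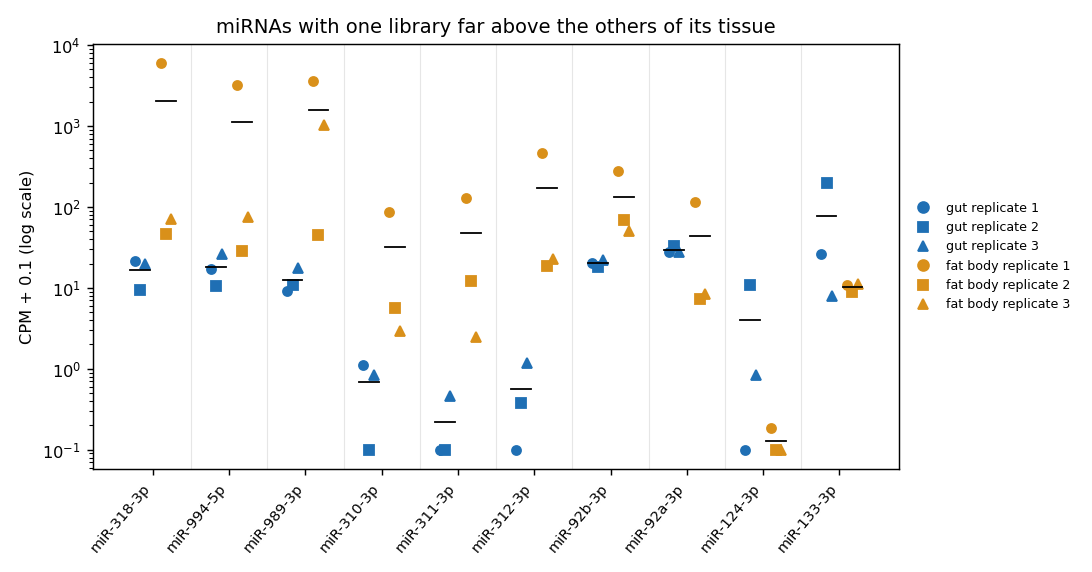
CPM + 0.1 (log scale) in each library for 10 names, with gut in blue on the left of each column and fat body in orange on the right, a symbol for each replicate and a bar at the mean of 3 libraries. Fat body replicate 1 (orange circle) lies at 5951 CPM for miR-318-3p, against 46.5 and 70.2 CPM in the other fat body libraries, and gut replicate 2 (blue square) holds most of miR-124-3p and miR-133-3p.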

How the data were processed

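Small RNA of 19 to 26 bases was isolated on a gel from each tissue and sequenced from 1 end. miRNA reads were recognised with miRDeep, and the table the authors deposited gives unnormalized read counts, with an entry for each pair of mature miRNA and hairpin. The genome build of that step is not given in the sources used here, and the submitters' processing notes list Trim Galore 0.3.7, TopHat2, SAMtools and DESeq2 for the series without saying which were used here. Every column of per-sample values was mapped to a library. Where a mature name had several entries (7 names), the entry with the highest total was kept.

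The counts were fitted by edgeR 4.0.16 under R 4.3.3 (quasi-likelihood test, TMM, Benjamini-Hochberg adjustment, threshold 0.05) over all names that reached 10 counts when the 6 libraries were added up. The common dispersion gave a coefficient of variation between replicates of 56.4%. limma 3.58.1, DESeq2 1.42.0, other size factors, other count minimums, all 12 tissue libraries, summed entries, a replicate block, a fold threshold of 1.5 and leaving out libraries were the alternatives. The procedure was tested on simulated data. Their spread between replicates was set below the one fitted here, so they do not show how the procedure does at this spread. Tables and figures were made in Python 3.11.15 with pandas 2.3.3, scipy 1.17.1 and matplotlib 3.10.9. Of the 426 names, 422 matched an annotated arm of RefSeq Release 6, from which sequences, positions and hosts were read. No coordinates of the deposited table were used. Arm shares needed 100 counts over both arms in each library. Where a tissue had 0 counts, 3 counts summed over its libraries stood in for them and the fold is a bound. Counting intervals and floors cover counting error only. The intervals of log2 differences come from the standard error of the edgeR fit and cover the spread between these libraries.

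The labels number the replicates 1 to 3 in both tissues. Deviations of same-numbered libraries from their tissue means correlated at 0.147, 0.189 and 0.114, all above 0.1. The numbers were therefore used as a block in an alternative fit, and the reported fit has no block. The possible pairing rests on this correlation and not on a label that names shared flies. Gut replicate 2 correlated more with fat body replicate 3 (0.273), and gut replicate 3 with fat body replicate 1 also passed 0.1 (0.112).

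The miRNAs named are miR-958, miR-314 and miR-1, the 10 largest called differences each way among names whose libraries do not overlap and with at least 10 CPM, the 10 most abundant of each tissue, up to 4 called members of each list, all marker names, the 5 hairpins that differ most in 3p share, and 5 abundant names nearest 0. Further names were picked once their values were known. The comparison, the lists and this rule were chosen with earlier results of these data known. The other 2 deposited files, which concern heads, were not used.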

Additional observations from a re-analysis of the deposited data

How the results depend on the processing

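Leaving out 1 library at a time gave 75 to 105 called names, 38 to 51 of them higher in gut and 37 to 54 higher in fat body, against 113, 52 and 61 with all libraries. The lowest counts came without gut replicate 2. The other 12 alternatives gave 96 to 146 calls, and no name called in both the reported fit and an alternative changed direction. The balance of calls turned with the scaling, to 57 higher in gut and 48 higher in fat body with library totals and 60 and 54 in DESeq2. Of the 113 calls, 63 (33 higher in gut and 30 higher in fat body) held under all 18 alternatives. Of the 62 named and called miRNAs, 41 held in every alternative that tested them. With the replicate block 98 names were called, 46 higher in gut and 52 higher in fat body. Among named miRNAs the block also lost miR-286-3p (0.0891 adjusted p in edgeR) and miR-961-5p (0.118), and beyond these and the values given with the results it changed no other call of a named miRNA. Hairpins with non-overlapping 3p shares numbered 26 of 66 with a minimum of 20 counts, and 27 to 33 of 48 to 58 with 1 library left out, where 2 libraries against 3 overlap less often by construction, so that these counts say nothing of stability.

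Some names without a call changed sign. With library totals the log2 difference was 0.17 for bantam-3p, 0.30 for miR-190-5p, 0.33 for miR-282-3p, 0.36 for miR-317-3p and 0.28 for miR-9c-5p. With DESeq2 size factors in edgeR it was 0.025 for miR-282-3p, 0.081 for miR-317-3p and 0.011 for miR-9c-5p, and in DESeq2 0.081 and 0.011 for the last pair. With 10 counts in 3 libraries it was 0.0095 for miR-282-3p and 0.054 for miR-317-3p, and with no filter 0.0076 for miR-317-3p. With both replicates 1 left out it was 0.091 for miR-317-3p, 0.34 for miR-9c-5p and 1.69 for miR-92a-3p. For miR-92a-3p it was 0.074 in limma-voom and 0.40 with the replicate block. With 1 library left out the differences ran from -0.43 to 0.76 for miR-210-3p, -0.22 to 0.069 for miR-282-3p, -0.84 to 2.79 for miR-315-5p, -0.18 to 0.18 for miR-317-3p, -1.57 to 1.54 for miR-92a-3p, -0.29 to 0.85 for miR-973-3p and -0.30 to 0.12 for miR-9c-5p. The cause of these changes was not tested beyond what each setting leaves out.

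The limits are 3 libraries a tissue, of which replicate 1 stood apart in both, and a shallow gut replicate 1 with 986198 counts, in which names below about 3.04 CPM cannot be told from absence. At this spread only 3 of the 113 calls were smaller than 2-fold, and the lack of a call does not show equal levels.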
